A study of Ambystoma mexicanum with 12 samples.

Results

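The genes described here are the cytokine, innate receptor and leukocyte genes of regenerating axolotl (Ambystoma mexicanum) forelimbs. They were chosen by symbol: interleukins and their receptors, chemokines and chemokine receptors, Toll-like receptors, tumour necrosis factor (TNF) ligands, receptors and induced proteins, colony-stimulating factors and receptors, the IRF, STAT and NFKB families, and SPI1, CYBA, CYBB, PTPRC, CD74, LCP1, CTSS and MYD88. The rule found 61 genes among the 8639 named genes of the array, with 76 probe sets between them. A gene with several probe sets was represented by the one with the highest mean over all samples. All 61 symbols were found in the species' RefSeq gene table. The symbols follow human gene names, IRF2BP1 and IRF2BP2 encode proteins that bind IRF2 and are not themselves IRF factors, and the roles below are those known from mammals.

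Forelimbs of juvenile axolotls were amputated through the distal lower arm (zeugopod), and the animals were dosed with retinoic acid (RA), LE135 or DMSO from day 7 to day 14, when the blastemas were collected. A blastema, a bud of dividing cells, regrows what was lost. By the study's design text RA, which binds retinoic acid receptors in vertebrates, leads to duplicated limb segments, LE135, a synthetic blocker of one of these receptors, to truncated limbs, and DMSO, the vehicle, to normal limbs. Each treatment has 4 samples of total RNA on 1 array each, and each sample pooled single forelimbs of 4 animals, 16 animals per treatment and 48 in all. The animals measured 8.8 cm in total length. All of them were anesthetized with benzocaine for surgery, and collection left out as much stump tissue as possible. Doses and strain are not given in the sources used here, and no transgene or other agent is named.

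Toll-like receptors bind molecules of microbes or damaged cells and signal, mostly through the adaptor MYD88, to NF-kappaB and to IRF factors. Interleukin receptors of the IL-6 and IL-4 families signal through JAK kinases to STAT factors, and chemokines guide leukocytes along gradients. Macrophages and neutrophils enter an amputated limb early, and axolotl limbs depleted of macrophages do not regenerate. Whole blastemas were measured, so a lower value may mean fewer cells of a type or less RNA per cell, and these cannot be told apart.

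All values are log2 expression values of single probe sets, whose brightness depends on the probes as well as on the RNA, so levels are compared between samples and not between genes. The array medians lay between 6.608 and 6.698, and no pair of arrays was identical. Markers of a limb blastema and its epidermis were present above the dim range: COL1A1, a collagen of connective tissue, at 14.39 in RA, 14.18 in LE135 and 13.95 in DMSO, PRRX1, a factor of limb mesenchyme, at 6.14, 6.05 and 5.62, and EPCAM, an epithelial adhesion protein, at 12.93, 12.96 and 13.11. DMSO 4 and LE135 4 resembled their groups least, with mean correlations of 0.978 and 0.986 with the other 3 samples of the group, against 0.989 to 0.995 for the other 10. Counts of calls, and some of the differences that rest on these samples, are therefore given with and without them. All other differences include both samples and may depend on them. A difference is called where limma's moderated test, adjusted over all 20035 probe sets by the Benjamini-Hochberg method, gave a p below 0.05, and rose and fell are used only of such differences.

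Few of the 61 genes were called, and the fall of TLR2 under RA was the one call that held whichever single sample was left out. Of the 61, 2 differed among the 3 treatments by the moderated F test, TLR2 and IL6ST (3.28%, where 3.01% of all named genes did). Leaving out single samples, 12 in turn, ended the TLR2 call 7 times and the IL6ST call 10 times. Against DMSO, RA raised IL4R and IL6ST and lowered TLR2, TLR3 and TLR8 (8.2% of the set, beside 2.74% of all named genes). Among all named genes 1.53% rose and 1.22% fell under RA. LE135 raised CYBA and lowered SPI1, where 0.868% of all named genes rose and 1.57% fell. Of these genes IL4R, TLR3, TLR8, CYBA and SPI1 did not pass the F test (adjusted p = 0.0906, 0.0644, 0.0608, 0.0541 and 0.0782). No gene of the set was called between RA and LE135, where 0.0116% of named genes were higher and 0.0347% lower in RA. The median log2 difference of the 61 genes was -0.03 for RA against DMSO, 0.05 for LE135 against DMSO and -0.08 for RA against LE135, beside -0.02, 0.00 and -0.01 over all named genes. In total 7 of the 61 genes were called in some test by the probe set that stood for them, and 54 in none. STAT3, among the 54, was called for RA against DMSO by dimmer probe sets (adjusted p = 0.0116 and 0.0130). Genes not called were not shown to be unchanged. An unadjusted p under 0.05 was found in 17 of the 61 genes for each drug against DMSO. Of all named genes 16.1% had such a p for RA and 14.6% for LE135. The shares of the set that rose or fell under either drug lay between 1.64% and 4.92%.

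**Figure D1:**
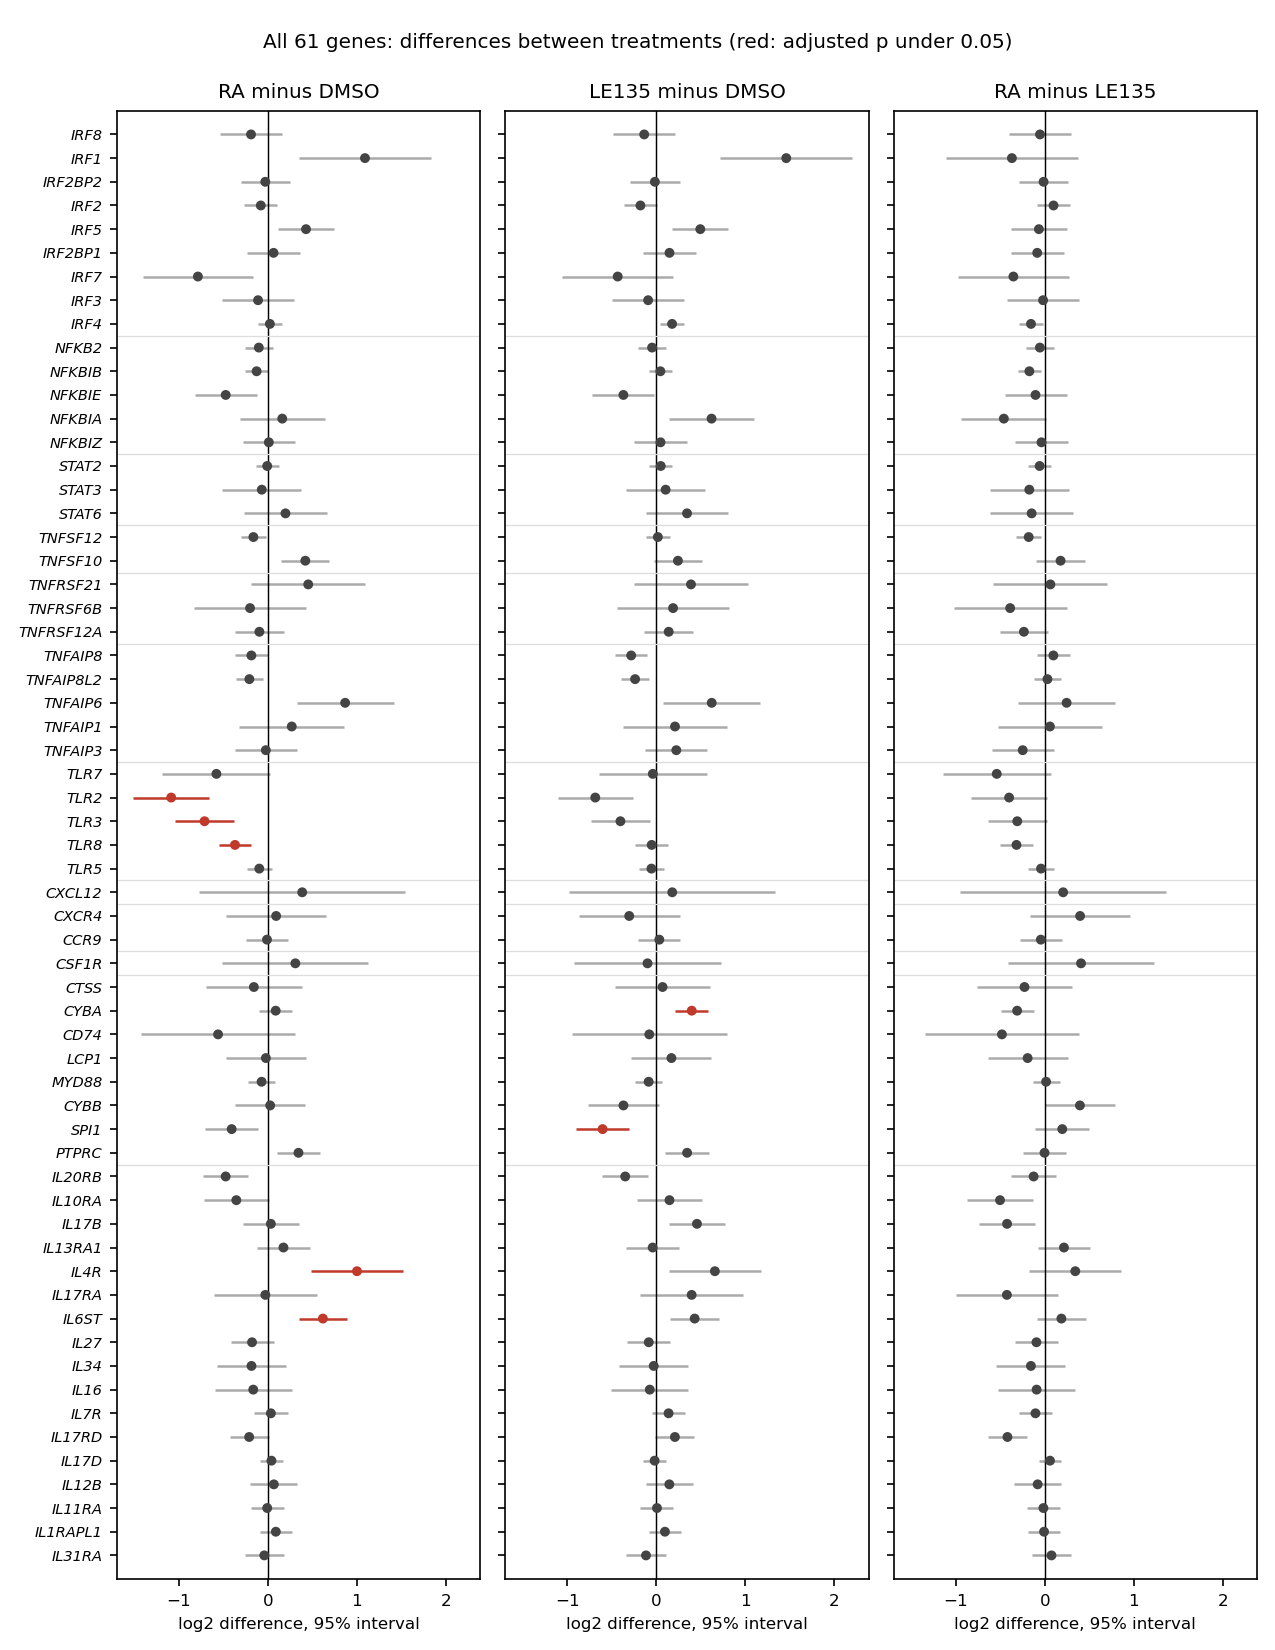
Log2 differences of all 61 genes between treatments, with unadjusted 95% intervals, grouped by role and, within a role, by mean level. Red marks the 5 genes called for RA minus DMSO and the 2 called for LE135 minus DMSO, and no gene is red for RA minus LE135.

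Of the 5 Toll-like receptors 3 fell under RA, where 1.22% of all named genes fell. TLR2, the receptor for bacterial lipoproteins, stood at 6.43, 6.98, 6.63 and 7.04 in RA, at 7.14, 7.20, 7.55 and 6.79 in LE135, and at 7.78, 8.01, 8.16 and 7.48 in DMSO. Every RA sample lay below every DMSO sample, and LE135 lay between them and overlapped both. Under RA TLR2 fell by 1.09 on the log2 scale (SE 0.19, adjusted p = 0.0143), a 2.12-fold lower value. The LE135 difference was -0.69 (SE 0.19), which did not pass with all samples (adjusted p = 0.112). It passed without DMSO 4 (-0.81, adjusted p = 0.0420) and with array weights (-0.78, adjusted p = 0.0164), and not without both DMSO 4 and LE135 4 (-0.69, adjusted p = 0.0540). The RA call held in each of the 12 fits that left out a single sample, with an adjusted p of at most 0.0495 and differences from -1.21 to -0.97. It was also the only call of the 61 genes for RA against DMSO in an unmoderated test. A second TLR2 probe set lay near the floor of the arrays, at 4.06 in RA, 4.09 in LE135 and 3.97 in DMSO, and did not differ by the test (0.09 for RA against DMSO, adjusted p = 0.697).

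TLR3, which senses double-stranded RNA, stood at 6.49, 6.32, 6.23 and 6.71 in RA, at 6.57, 6.89, 6.96 and 6.57 in LE135, and at 7.17, 6.81, 7.16 and 7.46 in DMSO. The RA samples lay below all DMSO samples by a narrow margin, 6.71 against 6.81 at the nearest. Under RA TLR3 fell by 0.71 (SE 0.15, adjusted p = 0.0316), and its LE135 difference of -0.40 did not pass (adjusted p = 0.249). TLR8, a sensor of single-stranded RNA, stood at 5.98, 6.18, 6.03 and 5.83 in RA, at 6.37, 6.41, 6.28 and 6.22 in LE135, and at 6.50, 6.38, 6.39 and 6.23 in DMSO. RA was below both other groups without overlap, while LE135 and DMSO overlapped. Under RA TLR8 fell by 0.37 (SE 0.08, adjusted p = 0.0419), with -0.05 in LE135 (adjusted p = 0.869).

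Both calls were sensitive to single samples. That of TLR3 ended without DMSO 1, DMSO 3, DMSO 4, RA 1, RA 2 or RA 3 (adjusted p from 0.0540 to 0.0970). The TLR3 call also ended with the replicate number as a block. That of TLR8 held only without DMSO 4, RA 2 or LE135 4 and ended in the other 9 omissions (adjusted p from 0.0568 to 0.121), with arrays centred on their medians (adjusted p = 0.0602) and under a prior that was trended and robust (adjusted p = 0.0834). In a fit of the RA and DMSO samples alone neither passed (adjusted p = 0.0647 for TLR3 and 0.0916 for TLR8). Without both DMSO 4 and LE135 4 the 3 receptors were still called, with differences of -1.21 for TLR2, -0.61 for TLR3 and -0.42 for TLR8 (adjusted p = 0.00289, 0.0294 and 0.0137).

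The other Toll-like receptors were not called with all samples. TLR7, a relative of TLR8 that also binds single-stranded RNA, stood at 7.40, 7.86, 7.36 and 7.60 in RA, at 8.11, 8.88, 8.14 and 7.26 in LE135, and at 8.33, 8.11, 8.33 and 7.76 in DMSO. RA and DMSO overlapped at 7.86 and 7.76, and LE135 held both the highest and the lowest value, the lowest in LE135 4. The difference of RA from DMSO was -0.58 (SE 0.28, adjusted p = 0.361), and a second probe set gave -0.13 (adjusted p = 0.866). Without DMSO 4 and LE135 4 the F test called TLR7 (adjusted p = 0.0432), and its RA difference of -0.70 still missed the threshold (adjusted p = 0.0532). TLR5, which binds flagellin, had the lowest probe set signal of the 61 genes, at 3.43 in RA, 3.48 in LE135 and 3.53 in DMSO, where the arrays' lowest values were 3.05 to 3.15, so a difference could hardly be read. MYD88, the adaptor of TLR2, TLR7 and TLR8, averaged 9.51 ± 0.08, 9.50 ± 0.04 and 9.59 ± 0.12 (SD, n = 4) in RA, LE135 and DMSO. Its differences from DMSO were -0.07 in RA and -0.09 in LE135, with 95% intervals of -0.22 to 0.08 and -0.24 to 0.07.

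Marker lists of other cells were read beside these receptors. The epidermis marker list (22 genes measured), scored per sample as the average deviation of its genes from their own 12-sample means, ran from -0.06 to -0.01 in RA, from -0.41 to -0.03 in LE135 and from 0.14 to 0.37 in DMSO. It was thus below DMSO in every sample of both drugs, and RA and LE135 overlapped. The macrophage and neutrophil list (15 genes) overlapped in all groups, from -0.22 to 0.25 in RA, -0.17 to 0.29 in LE135 and -0.15 to 0.07 in DMSO. The part of these cell types in the receptor results was not tested.

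**Figure D2:**
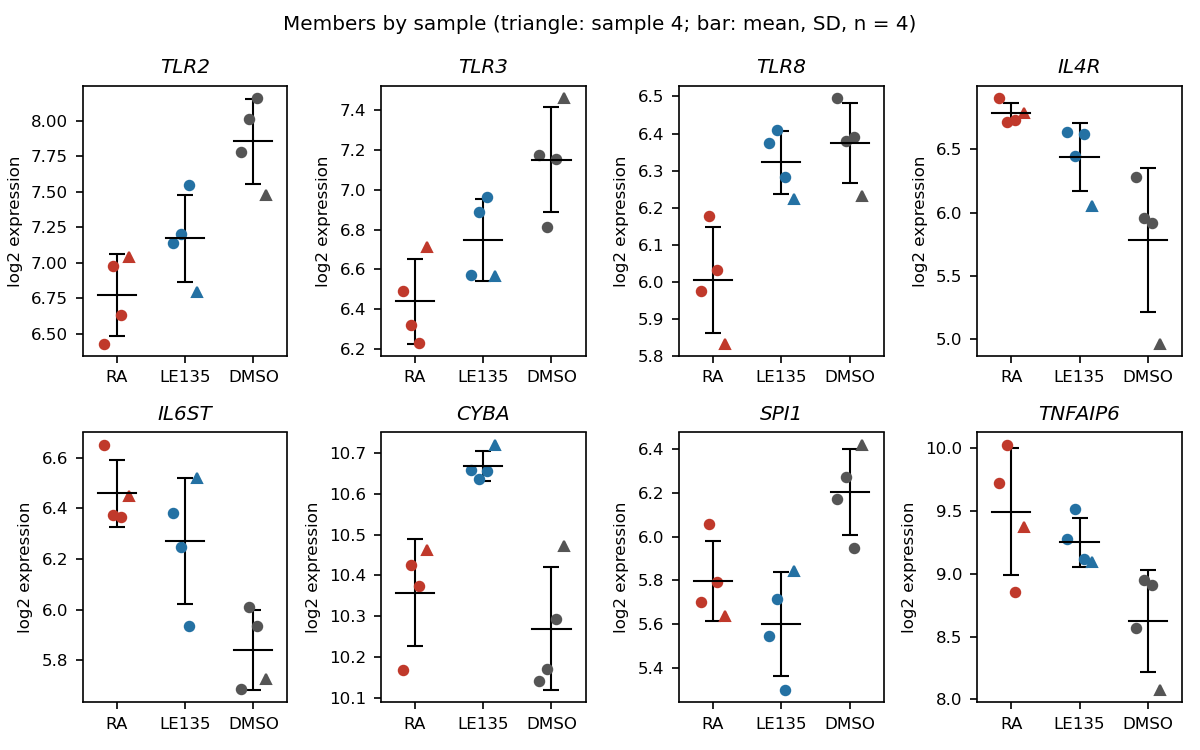
Log2 expression by sample of the 7 called genes and TNFAIP6, with RA, LE135 and DMSO from left to right, triangles for sample 4 and bars for the mean and SD (n = 4). TLR2, TLR3 and TLR8 lie lowest in RA, IL4R and IL6ST lie lowest in DMSO, CYBA is highest in LE135, and SPI1 is highest in DMSO with RA and LE135 overlapping.

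Among 17 interleukin and interleukin receptor genes, the 2 that rose under RA encode signalling chains of cytokine receptors. Of all named genes 1.53% rose under RA. IL4R, the shared chain of the IL-4 and IL-13 receptors, stood at 6.90, 6.71, 6.73 and 6.79 in RA, at 6.64, 6.45, 6.62 and 6.06 in LE135, and at 6.28, 5.96, 5.92 and 4.97 in DMSO. All 4 RA samples exceeded all samples of both other groups, and DMSO 4 lay far below its group. IL4R rose under RA by 1.00 (SE 0.23, adjusted p = 0.0490), and by 0.73 without DMSO 4 (adjusted p = 0.0228). The call held without DMSO 1, DMSO 4 or LE135 4 and ended in the other 9 omissions (adjusted p from 0.0623 to 0.139), with arrays centred on their medians (adjusted p = 0.0606) and in the fit of RA and DMSO alone (adjusted p = 0.0981). The LE135 difference of 0.66 did not pass (adjusted p = 0.221), but it did without DMSO 4 and LE135 4, at 0.52 (adjusted p = 0.0219).

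IL6ST, the gp130 chain that most receptors of the IL-6 family share, stood at 6.65, 6.37, 6.36 and 6.45 in RA, at 6.38, 6.25, 5.94 and 6.52 in LE135, and at 5.69, 6.01, 5.94 and 5.73 in DMSO. RA lay above DMSO without overlap, and LE135 reached into both. IL6ST rose under RA by 0.62 (SE 0.12, adjusted p = 0.0257), while 0.43 in LE135 did not pass (adjusted p = 0.122). The RA call ended without DMSO 1 or without any one of the 4 RA samples (adjusted p from 0.0504 to 0.0847).

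The remaining 15 genes of this role were not called. IL20RB, a receptor chain for cytokines of the IL-20 group that act on epithelia, stood at 8.75, 8.72, 8.93 and 8.90 in RA, at 8.98, 8.95, 9.19 and 8.68 in LE135, and at 9.36, 9.13, 9.53 and 9.17 in DMSO. RA was below DMSO without overlap, and the difference of -0.47 missed the threshold (adjusted p = 0.0586), as did -0.35 in LE135 (adjusted p = 0.183). IL20RB was described after its values were seen. The epidermis list was also below DMSO in every sample of both drugs, and its part in the IL20RB values was not tested. IL17B, a secreted cytokine of the IL-17 family, averaged 7.59 ± 0.14 in RA, 8.01 ± 0.23 in LE135 and 7.55 ± 0.28 in DMSO (SD, n = 4). IL10RA, the ligand-binding chain of the IL-10 receptor, averaged 8.59 ± 0.20, 9.09 ± 0.26 and 8.94 ± 0.30 in the same order. Both were lower in RA than in LE135 in every sample, with differences of -0.42 and -0.50 that did not pass (adjusted p = 0.482 and 0.459). IL13RA1, the other chain of the IL-13 receptor, differed from DMSO by 0.18 in RA and -0.04 in LE135, and without DMSO 4 by 0.02 and -0.19 (adjusted p = 0.930 and 0.220).

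Many interleukin probe sets were dim. Of the 17, 10 averaged below 5 (IL7R, IL11RA, IL12B, IL16, IL17D, IL17RD, IL1RAPL1, IL27, IL31RA and IL34), a level under which 24.7% of all named genes lay. The cytokines IL12B, IL16, IL17D, IL27 and IL34 were all in this group, and IL17B was the only secreted interleukin of the set above it. The 10 dim genes averaged from 3.63 (IL31RA) to 4.86 (IL27), none was called, and a real difference in them would be compressed. IL17RD, an inhibitor of FGF signalling despite its name, had the smallest adjusted p of the 61 genes for RA against LE135, at -0.42 (SE 0.10, adjusted p = 0.245). Its samples stood at 4.57, 4.39, 4.42 and 4.40 in RA, at 4.89, 4.93, 4.64 and 4.99 in LE135, and at 4.41, 4.80, 4.66 and 4.75 in DMSO.

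Among the genes of leukocytes, LE135 raised CYBA and lowered SPI1. CYBA, the membrane subunit p22phox of the phagocyte NADPH oxidase, stood at 10.66, 10.64, 10.66 and 10.72 in LE135, against 10.14, 10.17, 10.29 and 10.47 in DMSO, with 10.17, 10.43, 10.38 and 10.46 in RA. The LE135 samples lay close together and above every sample of both other groups. CYBA rose under LE135 by 0.40 (SE 0.08, adjusted p = 0.0375), a 1.32-fold higher value, and differed by 0.09 in RA (adjusted p = 0.723). The call held without DMSO 4 or RA 1 and ended in the other 10 omissions (adjusted p from 0.0522 to 0.108). CYBB, the catalytic subunit gp91phox with which CYBA pairs, stood at 8.99, 9.54, 8.80 and 8.79 in LE135 and at 9.33, 9.36, 9.57 and 9.33 in DMSO. Its difference of -0.37 had the opposite sign and did not pass (adjusted p = 0.416).

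SPI1, the PU.1 transcription factor of myeloid cells, stood at 5.55, 5.72, 5.30 and 5.85 in LE135, against 6.17, 6.27, 5.95 and 6.42 in DMSO, with 5.70, 6.06, 5.79 and 5.64 in RA. LE135 lay below DMSO without overlap, and RA overlapped both. Under LE135 SPI1 fell by 0.60 (SE 0.14, adjusted p = 0.0484), and its RA difference of -0.41 did not pass (adjusted p = 0.168). The call held without DMSO 3, RA 2 or LE135 4 and ended in the other 9 omissions (adjusted p from 0.0646 to 0.135), and it ended with a trended robust prior (adjusted p = 0.0546). In a fit of the LE135 and DMSO samples alone neither SPI1 nor CYBA passed (adjusted p = 0.137 and 0.0990). Without DMSO 4 and LE135 4 both passed, SPI1 at -0.61 and CYBA at 0.45 (adjusted p = 0.0336 and 0.0140).

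No other leukocyte gene of the set was called. PTPRC, which encodes the pan-leukocyte surface phosphatase CD45, averaged 5.67 ± 0.23 in RA, 5.67 ± 0.04 in LE135 and 5.32 ± 0.16 in DMSO (SD, n = 4). It was higher by 0.34 in RA and 0.35 in LE135 without passing (adjusted p = 0.152 and 0.165), with 0.25 and 0.18 from a second probe set. CD74, the invariant chain of class II antigen presentation, ranged from 9.52 to 10.23 in RA, from 9.29 to 11.54 in LE135 and from 9.87 to 10.79 in DMSO. LE135 4 held its highest value and LE135 3 its lowest. LCP1, an actin-bundling protein of leukocytes, averaged 9.93 ± 0.34, 10.12 ± 0.41 and 9.95 ± 0.16 in RA, LE135 and DMSO.

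CTSS, a cysteine protease of antigen-presenting cells, averaged 10.49 ± 0.36, 10.72 ± 0.45 and 10.65 ± 0.32 in the same order. Its 2 further probe sets were higher in both drugs than in DMSO, by 0.49 and 0.81 in RA and by 0.70 and 0.64 in LE135, and none of these differences passed (adjusted p from 0.266 to 0.651). CSF1R, the receptor that macrophages need for survival, stood at 8.26, 8.83, 7.52 and 7.76 in RA, at 7.64, 8.01, 7.48 and 7.61 in LE135, and at 8.01, 8.59, 7.89 and 6.66 in DMSO. Its spread within groups exceeded its differences of 0.31 in RA and -0.10 in LE135 (adjusted p = 0.791 and 0.954), and DMSO 4 held the lowest value. Without DMSO 4 the CSF1R differences were -0.07 in RA and -0.47 in LE135 (adjusted p = 0.940 and 0.374). A second CSF1R probe set, dimmer at a mean of 5.08, differed by -0.07 in RA and -0.12 in LE135 with all samples (adjusted p = 0.866 and 0.748).

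IRF1 had the largest differences from DMSO among the genes that were not called. IRF1, an interferon-inducible transcription factor, stood at 9.75, 10.03, 9.98 and 10.07 in RA, at 9.90, 10.04, 10.21 and 11.16 in LE135, and at 8.44, 8.53, 8.57 and 9.92 in DMSO. DMSO 1 to 3 lay more than 1 log2 unit below every drug sample, and DMSO 4 lay among the drug samples. The differences from DMSO were 1.09 in RA (SE 0.34, adjusted p = 0.132) and 1.46 in LE135 (SE 0.34, adjusted p = 0.0513), neither past the threshold. Without DMSO 4 they were 1.44 and 1.81 and both passed (adjusted p = 0.0136 and 0.00402), and without DMSO 4 and LE135 4 they were 1.44 and 1.54 (adjusted p = 6.28e-05 and 8.07e-05). Without LE135 4 alone they were 1.09 and 1.18, and neither passed (adjusted p = 0.0675 and 0.0880). With arrays centred on their medians the LE135 difference passed as well, at 1.47 (adjusted p = 0.0458). It also passed with a trended robust prior (adjusted p = 0.0446), with dim probe sets removed (adjusted p = 0.0420) and with the replicate number as a block (adjusted p = 0.0111). With array weights both differences passed, at 1.39 in RA and 1.47 in LE135 (adjusted p = 0.000884 and 0.00102). Neither passed in an unmoderated test, in fits of the compared groups alone, or in any omission of a single sample other than DMSO 4. The RA difference also did not pass with arrays centred on their medians, with a trended robust prior or with dim probe sets removed.

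IRF5, which acts below TLR7 and TLR8, showed the same arrangement at a smaller scale. It stood at 6.40, 6.36, 6.66 and 6.48 in RA, at 6.27, 6.58, 6.58 and 6.72 in LE135, and at 5.93, 5.77, 6.01 and 6.46 in DMSO. The differences of 0.43 in RA and 0.49 in LE135 did not pass (adjusted p = 0.164 and 0.122), but did without DMSO 4, at 0.57 and 0.63 (adjusted p = 0.0249 and 0.0132). IRF7, which drives type I interferon genes, stood at 4.66, 5.27, 5.30 and 4.97 in RA, at 5.34, 5.997, 5.35 and 4.93 in LE135, and at 5.72, 5.28, 5.75 and 6.61 in DMSO. Its difference of -0.79 in RA did not pass (adjusted p = 0.200). IRF8, a factor of macrophages and dendritic cells, averaged 10.07 ± 0.13, 10.12 ± 0.18 and 10.25 ± 0.36 in RA, LE135 and DMSO (SD, n = 4). IRF2, IRF3, IRF4, IRF2BP1 and IRF2BP2 differed from DMSO by between -0.18 and 0.18 in either drug, and none was called.

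**Figure D3:**
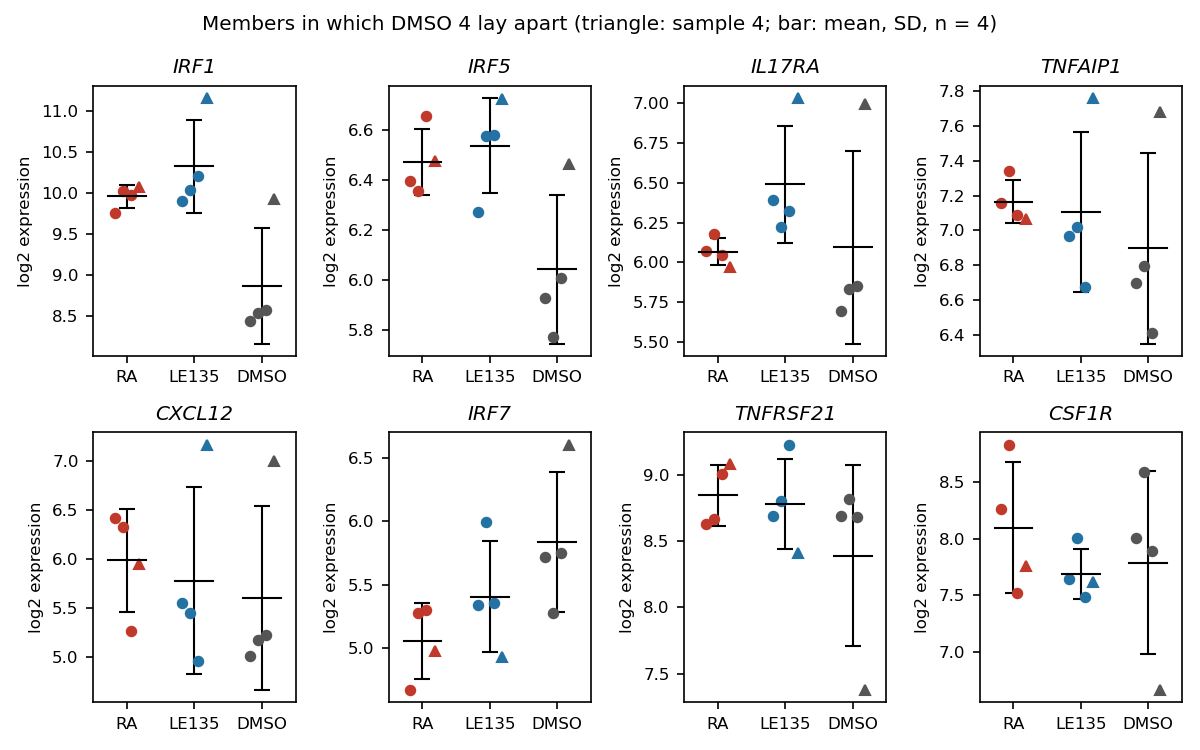
Log2 expression by sample of 8 genes in which DMSO 4 (the triangle at the right of each panel) held the highest or lowest DMSO value, with RA, LE135 and DMSO from left to right and bars for the mean and SD (n = 4). In IRF1 the other DMSO samples lie between 8.44 and 8.57, and DMSO 4 at 9.92 lies beside the RA samples.

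DMSO 4 differed more than 1.5-fold from the mean of the other DMSO samples in 17 of the 61 genes (27.9%), beside 14% of all named genes. It was higher in 11, among them CXCL12, IRF1, IL17RA, TNFAIP1 and IRF7, and lower in 6, among them CSF1R, TNFRSF21 and IL4R. LE135 4 did so in 10 genes (16.4%, beside 8.95%), of which 8 were higher, CD74, CXCL12, IRF1, NFKBIA and CXCR4 among them. The other 10 samples did so in 0 to 7 genes each. Among them were LE135 3 (11.5%, beside 2.84%), RA 2 (8.2%, beside 1.57%) and LE135 2 (6.56%, beside 1.86%). RA 4 and LE135 1 did so in 0 genes, beside 0.857% and 0.914%. The set varied more than named genes in every group. Its median SD was 0.14 in RA, 0.19 in LE135 and 0.22 in DMSO, beside 0.09, 0.13 and 0.14. DMSO 4 also had the lowest skeletal muscle list level of all samples, -2.08, where the other DMSO samples ran from -0.57 to 0.50, and LE135 4 had the highest erythrocyte list level, 0.36, and the lowest epidermis level, -0.41. RHAG, of the erythrocyte list, stood at 8.03 in LE135 4, against 6.45, 6.34 and 6.16 in LE135 1 to 3. The other leading genes of that list did not stand apart by as much in LE135 4. SLC4A1 stood at 4.34 there (4.26, 4.38 and 4.29 in LE135 1 to 3). SPTB stood at 5.13 (5.18, 4.87 and 4.86) and FECH at 5.18 (5.13 in each). The part of muscle, blood or epidermis content in the IRF1 and other values of DMSO 4 and LE135 4 was not tested.

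Without DMSO 4 and LE135 4 the counts of called genes grew in the set and in the array as a whole. The F test then called 12 of the 61 genes (19.7%, beside 7.65% of named genes), which included TLR2 and IL6ST. For RA against DMSO 6 rose and 4 fell (3.85% and 3.92% of named genes), the 5 called with all samples plus IRF1, IRF5, IL17RA, TNFAIP1 and IL20RB. For LE135 against DMSO 5 rose and 2 fell (2.07% and 3.53%), CYBA and SPI1 plus IRF1, IRF5, IL17RA, IL4R and IRF2. IL17RA, the common receptor chain of the IL-17 family, stood at 6.07, 6.18, 6.05 and 5.97 in RA, at 6.39, 6.22, 6.32 and 7.03 in LE135, and at 5.70, 5.83, 5.85 and 6.99 in DMSO. Its RA difference was -0.03 with all samples and 0.27 without DMSO 4 and LE135 4 (adjusted p = 0.981 and 0.0410). TNFAIP1, IL20RB and IRF2 were named here after their values were seen.

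**Figure D4:**
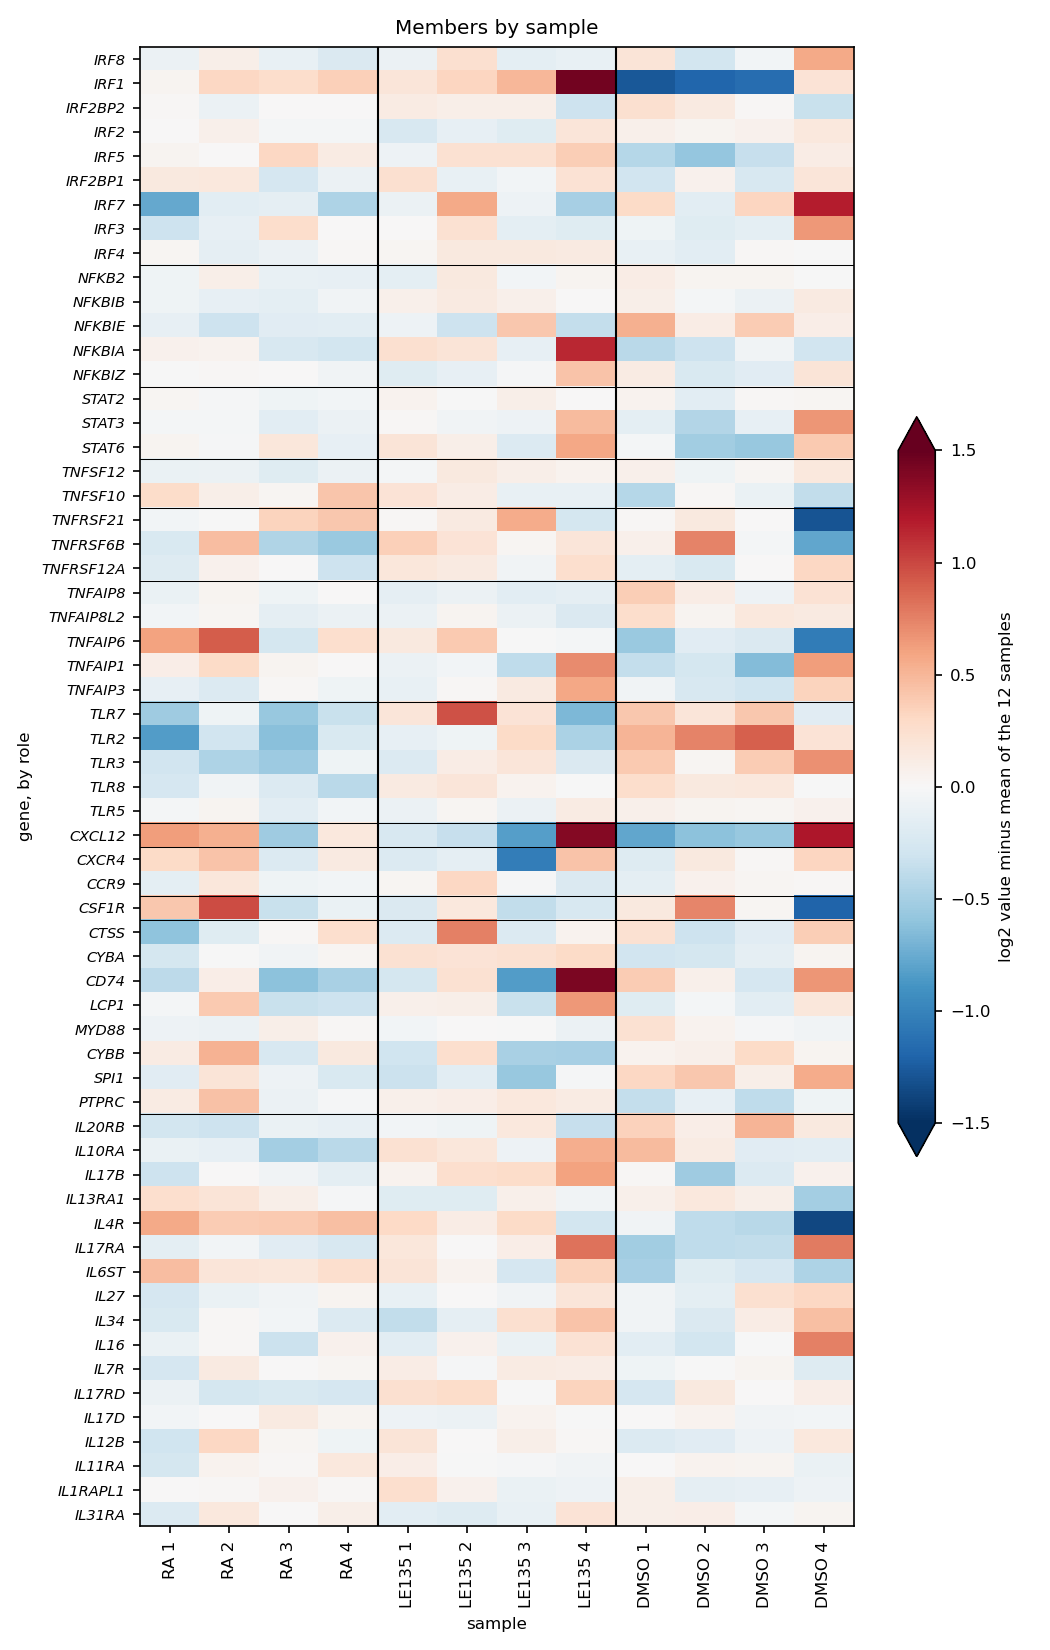
Deviation (log2) of each sample from the 12-sample mean of the gene, for all 61 genes (rows, by role) and 12 samples (columns, RA, LE135 and DMSO from left to right), with colour limits at -1.5 and 1.5. DMSO 4 and LE135 4 stand out in CXCL12, IL17RA, TNFAIP1 and IRF1, and the Toll-like receptor rows are blue in most RA columns.

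Chemokine genes were few and variable. CXCL12, the chemokine that holds cells in tissues through the receptor CXCR4, stood at 6.42, 6.33, 5.26 and 5.95 in RA, at 5.55, 5.45, 4.96 and 7.17 in LE135, and at 5.01, 5.17, 5.22 and 7.01 in DMSO. Its highest values were those of LE135 4 and DMSO 4. The difference of RA from DMSO was 0.39 with a 95% interval of -0.77 to 1.54, and that of LE135 was 0.18, from -0.98 to 1.34. CXCR4 averaged 8.23 ± 0.27 in RA, 7.84 ± 0.60 in LE135 and 8.14 ± 0.22 in DMSO (SD, n = 4), with LE135 3 lowest at 7.04. CCR9, a chemokine receptor of lymphocytes, was near the floor at 3.82 in RA, 3.86 in LE135 and 3.83 in DMSO.

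No TNF ligand, TNF receptor or TNFAIP gene was called. TNFAIP6, a secreted hyaluronan-binding protein that is induced by inflammation, stood at 9.72, 10.03, 8.86 and 9.37 in RA, at 9.27, 9.52, 9.12 and 9.09 in LE135, and at 8.57, 8.95, 8.91 and 8.07 in DMSO. LE135 lay above DMSO without overlap, and RA 3 alone fell into the DMSO range. Its differences of 0.87 in RA (SE 0.25) and 0.62 in LE135 (SE 0.25) did not pass (adjusted p = 0.107 and 0.291). Without RA 3 the RA difference was 1.08 and passed (adjusted p = 0.0433). TNFAIP8 and TNFAIP8L2, a pair of related regulators of cell death and immune signalling, were lower in every LE135 sample than in any DMSO sample, with differences of -0.28 and -0.24 (adjusted p = 0.127 and 0.129). A second TNFAIP8 probe set overlapped, at 8.08 to 8.65 in LE135 and 8.26 to 8.76 in DMSO. It differed by -0.16 (adjusted p = 0.674). TNFAIP3, the NF-kappaB inhibitor A20, was dim at 4.89 in RA, 5.14 in LE135 and 4.92 in DMSO.

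TNFSF10, the death ligand TRAIL, stood at 8.22, 8.03, 7.97 and 8.37 in RA, at 8.15, 8.05, 7.83 and 7.84 in LE135, and at 7.52, 7.96, 7.84 and 7.58 in DMSO. RA exceeded DMSO in every sample, by 0.42 on average (adjusted p = 0.113), and a second probe set gave 0.97 (adjusted p = 0.0734). TNFSF12, the ligand TWEAK, was lower in RA than in either other group in every sample, with differences of -0.16 from DMSO and -0.18 from LE135 (adjusted p = 0.237 and 0.497). Its receptor TNFRSF12A was dim, at 4.87 in RA, 5.10 in LE135 and 4.96 in DMSO. TNFRSF21, a death receptor, averaged 8.85 ± 0.23, 8.78 ± 0.34 and 8.39 ± 0.68 in RA, LE135 and DMSO, with DMSO 4 at 7.38. TNFRSF6B, a decoy receptor, averaged 8.10 ± 0.46, 8.49 ± 0.14 and 8.30 ± 0.62 in the same order.

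The STAT and NFKB genes were not called by the probe sets that stood for them. STAT3, the main effector of IL6ST, has 4 probe sets, which disagreed. The brightest stood at 7.29 ± 0.06 in RA, 7.46 ± 0.26 in LE135 and 7.35 ± 0.47 in DMSO (SD, n = 4), a difference of -0.07 in RA (adjusted p = 0.932). Its DMSO samples stood at 7.22, 6.92, 7.25 and 8.03. DMSO 4 lay 0.90 above the mean of the other DMSO samples, so the sign of this difference may rest on DMSO 4. A dimmer one stood at 5.54, 5.31, 4.89 and 5.34 in RA and at 4.51, 4.75, 4.38 and 4.60 in DMSO, and rose under RA by 0.71 (SE 0.12, adjusted p = 0.0130). Another stood at 5.54, 5.52, 5.38 and 5.31 in RA and at 4.79, 5.08, 4.94 and 5.01 in DMSO, and rose by 0.48 (SE 0.08, adjusted p = 0.0116). The fourth differed by 0.04 (adjusted p = 0.877). STAT2, of the interferon response, averaged 8.73 ± 0.04, 8.79 ± 0.04 and 8.74 ± 0.10 in RA, LE135 and DMSO, and STAT6, of IL-4 signalling, 5.23 ± 0.12, 5.37 ± 0.32 and 5.03 ± 0.45.

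NFKB2, a subunit of NF-kappaB, averaged 10.09 ± 0.10, 10.15 ± 0.12 and 10.20 ± 0.05 in RA, LE135 and DMSO. NFKBIE, an inhibitor of NF-kappaB, stood at 9.21, 9.01, 9.16 and 9.17 in RA, at 9.25, 9.01, 9.73 and 8.97 in LE135, and at 9.86, 9.43, 9.72 and 9.43 in DMSO. It was below DMSO in every RA sample, at a difference of -0.47, short of the threshold (adjusted p = 0.166). NFKBIA, the inhibitor that NF-kappaB itself induces, stood at 9.16, 9.11, 8.79 and 10.05 in LE135, against 8.51, 8.61, 8.87 and 8.64 in DMSO, with LE135 4 far above the rest. Its difference of 0.62 did not pass (adjusted p = 0.211), and without LE135 4 it was 0.36 (adjusted p = 0.216). NFKBIB and the dim NFKBIZ differed from DMSO by between -0.13 and 0.05 in either drug.

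Between RA and LE135 limma called none of the 61 genes, and 8 had an unadjusted p under 0.05 (7.81% of named genes did). In 1 gene, IL4R, every RA sample was higher than every LE135 sample, and in 8 every RA sample was lower, CYBA, IL10RA, IL17B, IL17RA, IL17RD, NFKBIB, TLR8 and TNFSF12. Such separation was seen in 3.76% of named genes for higher and 3.54% for lower values in RA. TLR8 differed by -0.32 (95% interval -0.50 to -0.13, adjusted p = 0.306), CYBA by -0.31 (-0.50 to -0.12, adjusted p = 0.335) and TLR2 by -0.40 (-0.82 to 0.02, adjusted p = 0.689). These intervals are not adjusted for the number of genes. The response of TLR2, TLR3 and TLR8 to RA was thus not shown to differ from that to LE135, except that with array weights TLR8 and IL17RD were called (adjusted p = 0.0327 and 0.0396).

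Separation from DMSO was counted in the same way. Under RA, 3 genes were higher in every sample (IL4R, IL6ST and TNFSF10) and 7 lower (TLR2, TLR3, TLR8, IL20RB, NFKBIE, TNFAIP8L2 and TNFSF12), beside 5.44% and 7.19% of named genes. Under LE135, 4 were higher (CYBA, PTPRC, TNFAIP6 and the dim IRF4) and 3 lower (SPI1, TNFAIP8 and TNFAIP8L2), beside 3.38% and 4.93%. TNFAIP8L2 was the gene below DMSO in every sample of both drugs. The comparisons share the DMSO samples.

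Pathway genes outside the set were read from lists of other members of the same pathways. Of 50 listed genes of IL-1, Toll-like receptor and NF-kappaB signalling 30 were measured, and none passed for RA or LE135 against DMSO, with medians of -0.04 and 0.03. Of 33 genes of JAK, SOCS and cytokine receptor signalling 21 were measured, with medians of 0.12 and 0.08. The list level ran from 0.031 to 0.135 in RA, from -0.047 to 0.027 in LE135 and from -0.183 to -0.004 in DMSO. RA thus lay above both other groups in every sample. Under each drug 1 gene rose, beside 1.53% of all named genes for RA and 0.868% for LE135. The gene was TYK2, a JAK kinase, at 8.12, 8.11, 8.07 and 8.12 in RA, 8.07, 8.01, 8.38 and 8.20 in LE135 and 7.80, 7.82, 7.75 and 7.68 in DMSO. Every drug sample exceeded every DMSO sample, and TYK2 rose by 0.34 in RA and 0.40 in LE135 (SE 0.08 each, adjusted p = 0.0403 and 0.0209). SOCS1 and SOCS3, feedback inhibitors of JAK kinases, were higher in RA by 0.76 and 0.46 and missed the threshold (adjusted p = 0.0752 and 0.0770). LIFR, a partner of IL6ST in the receptor for leukemia inhibitory factor, differed by 0.77 in RA (adjusted p = 0.0964).

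The interferon response, complement, and antigen presentation lists (8, 17 and 11 genes measured of 34, 30 and 25) had no member past the threshold in either drug. Their median differences were -0.11, 0.01 and 0.01 in RA and -0.05, 0.05 and 0.06 in LE135. TRIM25 and XAF1, both induced by interferon, had the smallest F test p of the interferon list, and differed by -0.42 and -0.45 in RA (adjusted p = 0.270 and 0.424).

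Cell type lists were measured in part. Of 45 macrophage and neutrophil genes 15 were measured, and MMP9, a gelatinase of neutrophils and of wound tissue, was the 1 that passed. It stood at 5.67, 5.86, 5.72 and 5.58 in LE135, against 5.39, 5.34, 5.29 and 5.32 in DMSO, and rose under LE135 by 0.37 (SE 0.07, adjusted p = 0.0200). Of all named genes 0.868% rose under LE135. The macrophage genes C1QC, AIF1 and CD68 were measured well above the floor, C1QC at 11.24 in RA, 11.47 in LE135 and 11.28 in DMSO, and were not called. Of the defining markers, MARCO averaged 6.77, 6.92 and 7.22 in RA, LE135 and DMSO, ITGB2 was dim at 4.41, 4.28 and 4.28, and MPEG1, TYROBP and FCER1G were not analysed here. SPI1 and CSF1R, also defining markers, belong to the set and are therefore left out of the list. SPI1 fell under LE135 (-0.60, adjusted p = 0.0484), and CSF1R was not called in either drug.

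Of 40 lymphocyte genes 10 were measured. TRAF3IP3, a TRAF3-binding protein of lymphocytes, stood at 7.85, 7.79, 7.96 and 7.74 in RA, at 7.55, 7.59, 7.91 and 7.47 in LE135, and at 8.46, 8.15, 8.37 and 8.28 in DMSO. The differences of -0.48 in RA and -0.69 in LE135 both passed (SE 0.10 each, adjusted p = 0.0316 and 0.00624), and no other gene of the list passed. Of all named genes 1.22% fell under RA and 1.57% under LE135. CD79A, a B cell receptor chain, was dim at 4.07, 4.17 and 4.11 in RA, LE135 and DMSO, and CD3E, LCK, ZAP70, CD79B and RAG1 were not analysed here. The lymphocyte list level ran from -0.09 to 0.07 in RA, from -0.09 to 0.08 in LE135 and from -0.07 to 0.06 in DMSO.

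Lists of non-immune cells showed where the samples differed otherwise. Of 22 epidermis genes 2 fell under RA (ST14 and AQP3) and 5 under LE135 (ST14, TP63, TGM1, JUP and DSC2), with medians of -0.17 and -0.32. Of 23 connective tissue genes 2 rose (FAP and DCN) and 2 fell (MSX2 and the dim TNN) under RA, and 1 rose under LE135 (FAP). The medians of this list were 0.44 in RA and 0.20 in LE135, beside -0.02 and 0.00 over all named genes. Its level ran from -0.01 to 0.32 in RA, -0.17 to 0.12 in LE135 and -0.43 to 0.08 in DMSO, and the groups overlapped. FAP differed from DMSO by 1.60 in RA and 1.39 in LE135, and DCN by 0.32 in RA. The RA differences of MSX2 and TNN were -0.76 and -0.90 (adjusted p = 0.0287 and 0.0419). Of 45 cell cycle genes 2 rose and 4 fell under RA and 21 fell under LE135, with medians of -0.25 and -0.40. Among all named genes 1.53% rose and 1.22% fell under RA, and 0.868% rose and 1.57% fell under LE135. Of the muscle list (21 genes) 1 rose under RA and none was called under LE135, with medians of 0.72 and 0.63. The muscle level ran from -1.13 to 1.33 in RA, -0.43 to 0.68 in LE135 and -2.08 to 0.50 in DMSO, and the endothelium list (11 genes) overlapped in all groups. Of the erythrocyte list (8 genes) no member was called. Its level ran from 0.09 to 0.18 in RA, from -0.45 to 0.36 in LE135 and from -0.08 to 0.06 in DMSO, so RA lay above DMSO in every sample. The list's median difference in RA was only 0.04. Of its leading genes RHAG and SPTB differed by 0.56 and 0.36 in RA, and FECH by -0.08. SLC4A1, a defining marker, differed by 0.11 and was dim at 4.30 in RA and 4.19 in DMSO. The part of blood content in the RA results was not tested.

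**Figure D5:**
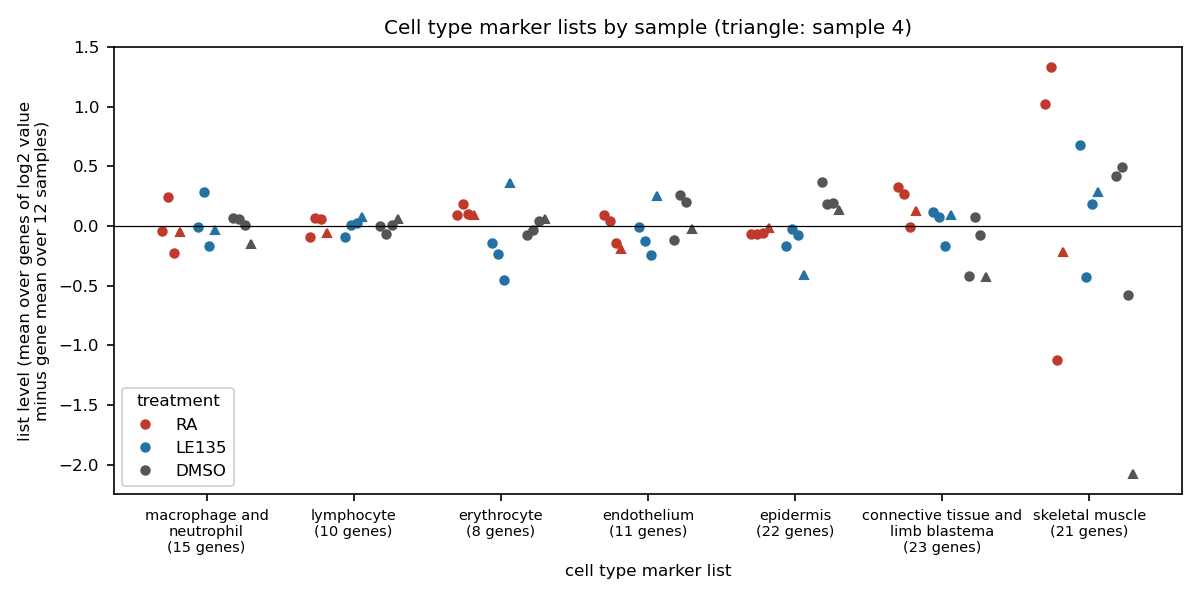
Level of each cell type marker list by sample (average log2 deviation of its genes from their 12-sample means), RA, LE135 and DMSO from left to right within a list, triangles for sample 4. The macrophage and lymphocyte lists overlap between treatments, the epidermis list is highest in the 4 DMSO samples, and the muscle list varies most within treatments.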

How the data were processed

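The authors deposited log2 values for 20080 probe sets on each of 12 Affymetrix arrays. RMA, which corrects background, normalizes by quantiles and summarizes probes, made them per the submitters' processing notes, and its version is not given in the sources. After removal of 45 controls, 10951 of the 20035 remaining probe sets had a gene symbol in the platform annotation. No detection filter was applied. For arrays the number of samples, 4 per group, limits the precision.

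A linear model with a mean per treatment was fitted over all probe sets and samples in limma 3.58.1 (R 4.3.3), with a moderated F test, the 3 contrasts and Benjamini-Hochberg adjustment at 0.05, and tested on simulated data. SE and 95% intervals are those of the moderated contrasts. The design text states an ANOVA at the same threshold. Alternatives were a replicate block, another prior, an unmoderated ANOVA, array weights, a filter on dim probe sets, median centring, groups fitted alone, any probe set of a gene, a stricter reading of the symbols, and omission of single samples and of DMSO 4 with LE135 4. List levels leave out the 61 genes themselves.

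The labels number the samples 1 to 4 in each treatment. Deviations of same-numbered samples from their group means correlated by 0.13 to 0.61 in the 4 pairs of LE135 and DMSO, by 0.04 to 0.18 in those of RA and DMSO, and by -0.17 to 0.26 in those of RA and LE135. The labels do not say what a number shares. Every pair of LE135 and DMSO was over 0.1, but so were some pairs with RA (up to 0.18 with DMSO and 0.26 with LE135). The 0.61 is that of DMSO 4 and LE135 4, which resembled their groups least. Of the 12 samples, 4 correlated best with their own number. Whether the numbers pair any groups was therefore not settled. The main tests leave the numbers out, and the blocked value, for RA as well as LE135, is given where it changes a call. Pools are the unit of replication.

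Genes were named by a rule: every called gene, the 8 given by symbol, the 2 with the smallest F test p in each role, the 5 highest and 3 lowest in signal, the 6 with the largest difference in each contrast, and up to 4 leading genes of each list. C1QC, AIF1, CD68, COL1A1, EPCAM, PRRX1, JUP, DSC2 and further genes of the set fell outside it and complete counts or the account of each role. The members, lists, rule and alternatives were chosen with earlier results of these data known.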

Additional observations from a re-analysis of the deposited data

Results flagged for a closer look

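In 16 of 183 groups of 4 samples 1 sample lay apart from the other 3 by Dixon's test, which flags about 1 in 20 groups by chance. DMSO 4 was such a sample in 6 genes, highest in CXCL12 (7.01, the others 5.01 to 5.22), IRF1 (9.92, the others 8.44 to 8.57), IL17RA (6.99, the others 5.70 to 5.85) and IRF3 (5.43, the others 4.60 to 4.72), and lowest in TNFRSF21 (7.38, the others 8.68 to 8.82) and IL13RA1 (6.47, the others 7.05 to 7.13). LE135 4 was highest in STAT3 (7.84, the others 7.29 to 7.39) and lowest in IRF2BP2 (8.67, the others 9.06 to 9.10).

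The other cases were smaller in size. LE135 2 was highest in IRF8 (10.39, the others 10.002 to 10.05) and lowest in IL7R (4.645, the others 4.77 to 4.79), and LE135 1 was lowest in IRF4 (4.03, the others 4.13 to 4.14). RA 3 was lowest in TNFSF12 (8.46, the others 8.55 to 8.56) and highest in IL1RAPL1 (4.14, the others 4.08 to 4.09), and RA 2 was lowest in IRF2BP2 (8.89, the others 8.98 to 8.99). DMSO 3 was highest in CYBB (9.57, the others 9.33 to 9.36), and DMSO 2 was lowest in STAT2 (8.59, the others 8.77 to 8.80).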

How the results depend on the processing

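The counts of called genes in the set were 2 for the F test, 5 for RA against DMSO, 2 for LE135 against DMSO and 0 for RA against LE135. Of all named genes 3.01%, 2.74%, 2.44% and 0.0463% were called. Leaving out each sample in turn gave 0 to 6, 1 to 6, 0 to 5 and 0. The shares of all named genes then ran from 1.44% to 3.9%, 1.2% to 3.62%, 1.18% to 4.27% and 0.0116% to 0.116%. For RA against DMSO the count was 1 without RA 1, 2 without DMSO 1, DMSO 3, RA 2, RA 3 or RA 4, and 3 without DMSO 2, LE135 1 or LE135 2. For LE135 against DMSO it was 0 without DMSO 1, DMSO 2, RA 3, RA 4, LE135 1 or LE135 2, 1 without RA 1, RA 2 or LE135 3, and 5 without DMSO 4. Without DMSO 4 and LE135 4 the first 3 counts were 12, 10 and 7, beside 7.65%, 7.78% and 5.6% of all named genes. With array weights the 4 counts were 10, 9, 8 and 2 (IL17RD and TLR8), beside 8.73%, 7.07%, 7.07% and 1.02%. An unmoderated ANOVA and its contrasts gave 0, 1 and 0 in the first 3, with 20 and 15 genes under an unadjusted p of 0.05 where these counts were 0. Of all named genes these tests called 1.84%, 1.86% and 1.89%. Fits of the compared groups alone gave 2 for RA and 0 for LE135 (limma, 16 under an unadjusted p of 0.05), and centring arrays on their medians gave 3 for RA. The shares of all named genes called were 1.92%, 0.556% and 2.5%. With the replicate block the F test called 5 genes (CYBA, IL4R, IRF1, TLR2 and TLR8), only TLR2 shared with the fit as designed, so IL6ST no longer passed. RA against DMSO gave 6 and LE135 against DMSO 3. The shares of all named genes called were 3.19%, 3.02% and 2.48%, and 4 of the 12 samples correlated best with their own number. IRF1 passed under the block in the F test (adjusted p = 0.0177), for RA (0.0296) and for LE135 (0.0111), IL20RB passed for RA (0.0308), and TLR3 did not pass for RA (0.0522). The RA difference of IL17RA was positive without DMSO 4 and LE135 4 (0.27), with array weights (0.20), without DMSO 4 (0.27) and without RA 4 (0.0037), and single omissions ran from -0.16 to 0.27. The causes were not tested. The other choices (a trended robust prior, dim probe sets removed, any probe set of a gene, a digit required after the family letters) left the counts within 1.5 times. Under the trended prior TLR8 for RA (adjusted p = 0.0834), SPI1 for LE135 (0.0546) and IL6ST in the F test (0.0611) no longer passed, and CYBA in the F test (0.0463) and IRF1 for LE135 (0.0446) did. With dim probe sets removed CYBA in the F test (0.0467) and IRF1 for LE135 (0.0420) passed as well.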
